A study of Saccharomyces cerevisiae with 4 samples.

Results

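The seripauperins (PAU genes) and the DAN and TIR mannoproteins of the budding yeast Saccharomyces cerevisiae were followed across 4 strains, with 1 array per strain. The members were the probe sets annotated with at least 1 gene symbol made of PAU, DAN or TIR and a number, probe sets shared by several copies included. There were 28 of them among 9275 non-control probe sets, and they covered all 30 such genes of the gene table, out of 5923 genes annotated on the array: 24 PAU, 2 DAN and 4 TIR genes. The strains were the wild type W303-1A, a ubp10 null mutant, a sir4 null mutant and a ubp10 sir4 double null mutant, each growing exponentially. Total RNA was measured on the Affymetrix Yeast Genome S98 platform. The term sir4-labelled array is used for the sir4 null mutant, because its SIR4 reading did not show the loss of the gene. Nor did the SIR4 reading of the double null, whose name is likewise taken from its label. UBP10 encodes a ubiquitin-specific protease that acts on histone H2B, and SIR4 a structural part of the SIR complex, which silences chromatin near chromosome ends and at HML and HMR. Every group was a single array, so the differences carry no replicate error and no test, and calls are by size alone.

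The seripauperins are short, serine-poor relatives of the cell wall protein Tip1, and most of their genes lie near chromosome ends, where silencing proteins act. DAN1, DAN4 and TIR1 to TIR4 encode larger mannoproteins that are anchored in the wall. Genes of all 3 groups are kept low in air and are induced when oxygen runs out, through the sterol-sensing activator Upc2 and relief from the repressors Rox1 and Mot3. TIR1 and TIR2 are also known as cold shock genes, and TIR1, TIR3 and TIR4 are each needed for growth without oxygen.

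In the gene table, 19 of the 24 PAU genes had fewer than 10 protein-coding genes between them and the chromosome end, and each of the 16 chromosomes held at least 1 PAU gene. PAU2, PAU5, PAU7, PAU17 and PAU23 lay further in, PAU23 with 99 genes outside it, PAU17 with 38 and PAU7 with only 14. The 6 DAN and TIR genes were all further in, although DAN1 and DAN4, which are neighbours on chromosome X, had only 11 and 10 genes outside them. TIR4 and TIR2 were neighbours on chromosome XV, next to AUS1, a sterol importer. PAU23 and PAU24 carry DAN2 and DAN3 as synonyms. The annotated lengths were 363 to 375 bp for 20 of the PAU genes, 495 bp for PAU21 and PAU22, 168 bp for PAU7 and 129 bp for PAU9, against 756 bp for TIR2 and 3486 bp for DAN4.

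The near-identical copies limited what each probe set resolved. Of the 28 probe sets, 16 were listed for a single gene and 12 for several, up to 8 genes on 1 probe set. An own probe set existed for 10 PAU genes, while the other 14 were read only through shared ones. All but 1 of the 22 PAU probe sets carried the array's mark for a gene family (21 with the suffix _f), so a probe set listed for 1 PAU gene can also have bound its copies. Linked through shared genes, 13 probe sets for 14 genes formed 1 connected group, and these 13 are not independent readings. The strain was W303-1A, and its own set of chromosome-end copies was not examined.

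**Figure D1:**
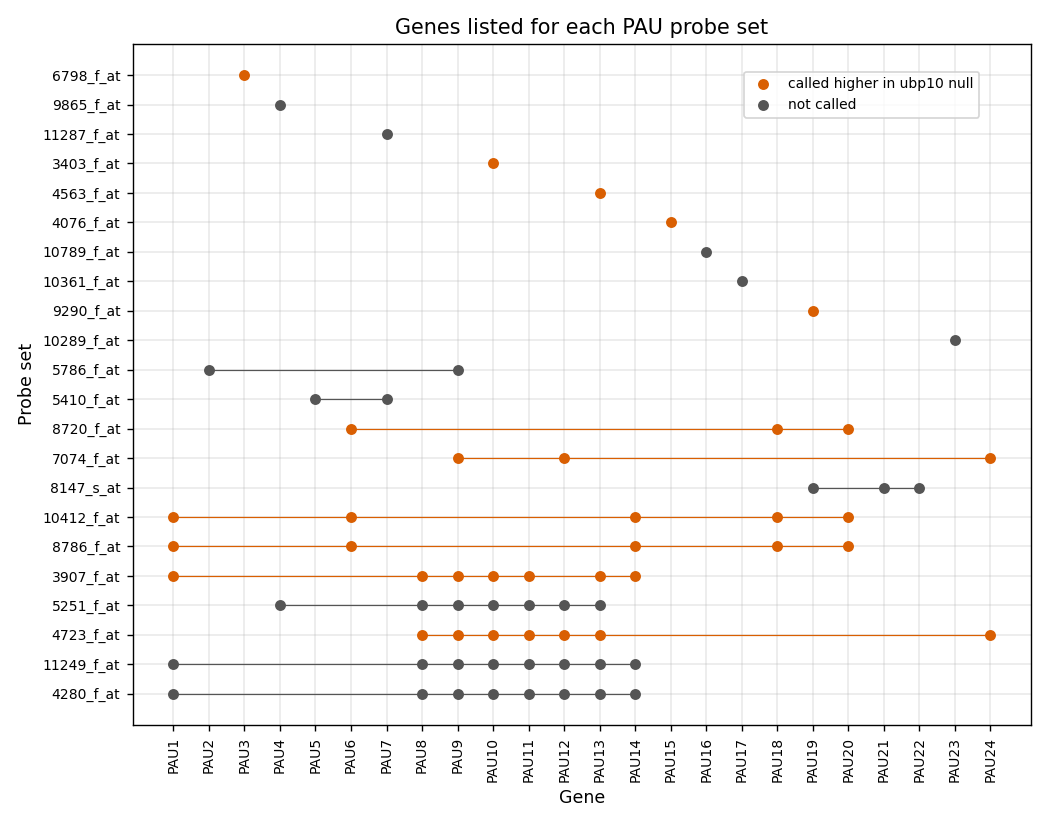
Genes (x axis) listed for each of the 22 PAU probe sets (y axis), with a line joining the genes of a shared probe set. Orange marks the 11 probe sets called higher in the ubp10 null, and grey the others, and both colours occur among single-gene and shared probe sets.

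The values are MAS 4.0 average differences, the mean gap between perfect-match and mismatch probes, in intensity units on a linear scale. Values under a floor of 6.67 units, 3 times the noise SD of 2.22, were raised to it. A call, higher or lower, needed a value of 13.3 units or more on the brighter array and a ratio of at least 2, on the values as deposited. The mean intensity without the lowest and highest 2% of values differed by at most 0.04% between the 4 arrays. The median log2 ratio of probe sets above the floor on both arrays was nevertheless 0.47 for the sir4-labelled array over wild type, 0.48 for double null over wild type and 0.36 for double null over ubp10 null. Folds in these 3 comparisons are therefore given relative to that median. In the other 2, ubp10 null over wild type and double null over the sir4-labelled array, the shift was under 0.1 and folds are as deposited. Series of 4 values are listed in the order wild type, ubp10 null, sir4-labelled array, double null.

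The targeted gene UBP10 read 247.9, 5.7, 269.2 and 4.0 units, under the floor in both strains that lack it. SIR4 was dim on every array, with 10.8, 4.9, 20.7 and 15.5 units. These values do not show its loss in the 2 strains labelled as lacking it, and the lowest was that of the ubp10 null. The SIR4 genotype of every strain is therefore taken from its label. On the sir4-labelled array the 3′ probe set of ACT1, the actin gene, was 86.9-fold brighter than the 5′ probe set, against 1.12- to 1.55-fold on the other 3 arrays. The part of this 5′ loss in the values of that array was not tested. Of 8 probe sets for a-specific mating genes, which mark the mating type of the wild type, 7 were called lower in the double null, 2 in the ubp10 null and 0 on the sir4-labelled array as deposited. Over all probe sets 5.69%, 6.44% and 6.75% were called lower in the same order. The 2 in the ubp10 null were BAR1 and AGA2, at only 2.01- and 2.02-fold. Relative to the median the a-specific counts were 7, 0 and 3. The share of all probe sets was then 9.55% for the double null and 12.0% for the sir4-labelled array. Median log2 ratios of the a-specific probe sets to wild type as deposited were -4.32, -0.89 and -0.50 in the same order. The 2 strains labelled as lacking SIR4 thus differed in these genes, and the reason was not tested.

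Of the 28 members, 24 lay above the floor on all 4 arrays and 2 lay under it on every array. DAN1 was 1 of the 2 dark probe sets, with 1.0, 3.9, 1.7 and -0.9 units. The other was 8147_s_at, shared by PAU19, PAU21 and PAU22, which read between 0.4 and 5.5 units. The last 2 members, 3907_f_at and 8720_f_at, fell under the floor only on the wild-type array.

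**Figure D2:**
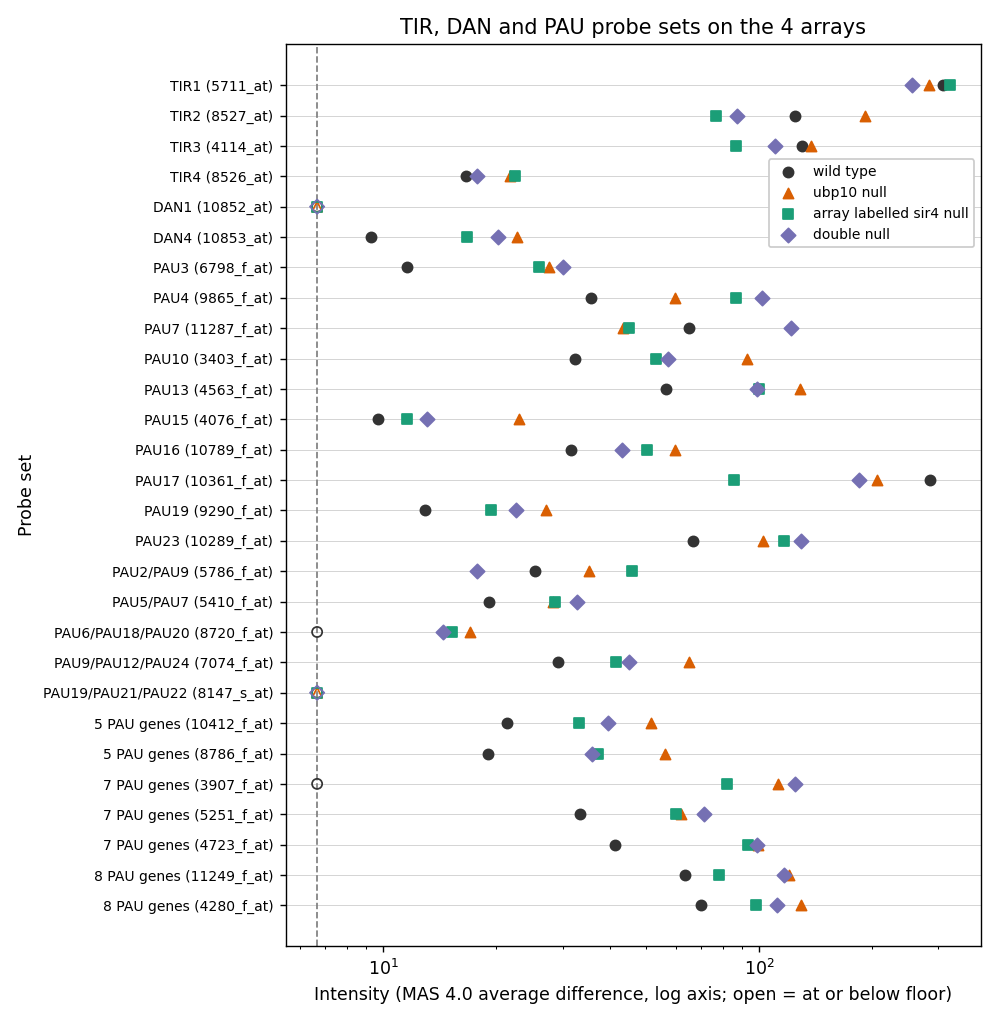
Intensity (x axis, log scale) of each of the 28 probe sets (y axis) on the 4 arrays, 1 marker per array, with the floor as a dashed line and open markers at or below it. The wild type is the lowest marker for most PAU probe sets, with PAU17, PAU7 and the PAU2/PAU9 probe set as exceptions. Levels of different probe sets are not comparable with each other.

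Removal of UBP10 with SIR4 present came with higher readings across most of the PAU family. Against wild type 12 of the 28 members were called higher in the ubp10 null and 0 lower, against 9.84% of all probe sets higher and 6.44% lower. Among them were 11 of 22 PAU probe sets and DAN4, and 0 of 4 TIR probe sets. The median log2 ratio of the 28 members was 0.91, against 0.00 over all probe sets. The changes were modest: with a ratio of at least 3 in place of 2, only 1 member was called. The 11 PAU calls were spread over single-gene (5 of 10) and shared (6 of 12) probe sets. Apart from PAU3, PAU15 and PAU19, they all lay in the connected group of 13 probe sets and are not independent readings.

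Among single-gene probe sets PAU10, near the right end of chromosome IV, read 32.4, 92.9, 53.2 and 57.2 units. PAU13, near the left end of chromosome VIII, read 56.5, 128.3, 99.8 and 98.6 units. In both the wild type was lowest and the ubp10 null highest, 2.87-fold above wild type for PAU10 and 2.27-fold for PAU13. PAU15 had 9.7 units in the wild type against 23.0, 11.6 and 13.1 in the mutants, a 2.37-fold difference for the ubp10 null. PAU19, the outermost gene of its arm on chromosome XIII, had 12.9 units against 27.1, 19.3 and 22.5. For these 2 dimmer probe sets too the ubp10 null was the highest array, and PAU19 was 2.10-fold above wild type there.

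PAU3 and PAU4 had another order of arrays. PAU3, near the right end of chromosome III, read 11.6, 27.6, 26.0 and 30.0 units, with the 3 mutants close together and 2.38-fold separating the ubp10 null from the wild type. PAU4, on chromosome XII, read 35.6, 59.6, 86.6 and 101.6 units, so the ubp10 null was the lowest of the mutants and, at 1.67-fold, was not called. PAU16, the outermost gene of its arm on chromosome XI, read 31.5, 59.7, 50.2 and 43.2 units and fell just short of a call at 1.90-fold.

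The shared probe sets gave similar ratios. Probe sets 10412_f_at and 8786_f_at are both listed for PAU1, PAU6, PAU14, PAU18 and PAU20, and serve as a repeat reading of the same genes on each array. The first read 21.4, 51.6, 33.1 and 39.6 units, and the second 19.0, 56.1, 37.3 and 36.0. Both were called higher in the ubp10 null, at 2.41- and 2.95-fold. A second such pair, 11249_f_at and 4280_f_at, is listed for 8 genes, PAU1 and PAU8 to PAU14. It read 63.7, 120.0, 78.4 and 116.5 units on 1 probe set and 69.9, 128.9, 97.9 and 111.5 on the other. At 1.88- and 1.84-fold in the ubp10 null, neither of this pair was called. Across the 5 comparisons the ratios within these 2 pairs differed by 1.02- to 1.30-fold, which describes the agreement between probe sets on the same arrays and leaves out any spread between cultures.

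Other shared probe sets lay in the same range. Probe set 4723_f_at, listed for PAU8 to PAU13 and PAU24, read 41.4, 99.1, 93.3 and 98.7 units, and was called higher in the ubp10 null at 2.39-fold. Probe set 7074_f_at, for PAU9, PAU12 and PAU24, read 29.2, 65.0, 41.7 and 45.2 units and was also called, at 2.23-fold. Probe set 5251_f_at, for PAU4 and PAU8 to PAU13, read 33.3, 62.0, 60.0 and 71.2 units and was not called in the ubp10 null, at 1.86-fold. The wild type was the lowest array on all 3. Probe set 5410_f_at, for PAU5 and PAU7, read 19.1, 28.3, 28.7 and 32.8 units, with the wild type lowest again and no call.

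Probe sets 3907_f_at and 8720_f_at stood apart because they were dark in the wild type. The first, listed for PAU1, PAU8 to PAU11, PAU13 and PAU14, read 1.0 unit in the wild type but 112.4, 82.1 and 124.5 units in the mutants, at least 16.8-fold higher in the ubp10 null. All 7 of its genes are also listed for 11249_f_at and 4280_f_at, which were well above the floor in the wild type and differed by under 2-fold, so the other probe sets of the same genes did not show a difference of that size. The second, for PAU6, PAU18 and PAU20, read -3.7 units in the wild type and 17.0, 15.2 and 14.4 in the mutants, at least 2.55-fold higher in the ubp10 null. Its 3 genes are also listed for 10412_f_at and 8786_f_at, which gave 2.41- and 2.95-fold.

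The other PAU probe sets include 3 that did not follow this order, and 2 of them are listed for a single gene of those further in. PAU17, whose neighbours on chromosome XII are the chaperone genes HSP104 and SSA2, read 285.3, 206.1, 85.6 and 184.2 units. The wild type was its highest array, whereas the wild type was the lowest for most PAU probe sets. PAU7, between CDC15 and DFP1 on chromosome I, read 65.1, 43.4, 45.1 and 121.4 units, with the double null alone above the wild type. The probe set of PAU2 and PAU9 read 25.3, 35.2, 45.8 and 17.8 units, with the double null lowest. PAU23, the last PAU gene further in with its own probe set, read 66.6, 102.4, 116.6 and 129.5 units. All 3 mutants lay above the wild type without a call.

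By position, all 7 single-gene PAU probe sets near a chromosome end had a ratio above 1 in the ubp10 null over wild type. These ratios ran from 1.67- to 2.87-fold, and 5 of the 7 were called higher (71.4%, against 9.84% of all probe sets). Of the 3 single-gene PAU probe sets further in, PAU23 had a ratio of 1.54, PAU17 of 0.722 and PAU7 of 0.667, and 0 were called. The shared probe set of PAU5 and PAU7, both further in, had a ratio of 1.48 without a call. Of the 6 DAN and TIR probe sets, whose genes all lie further in, 1 was called higher, DAN4. The split by position was made with the values known, rests on 3 single-gene PAU probe sets on the inner side, and was not tested.

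**Figure D3:**
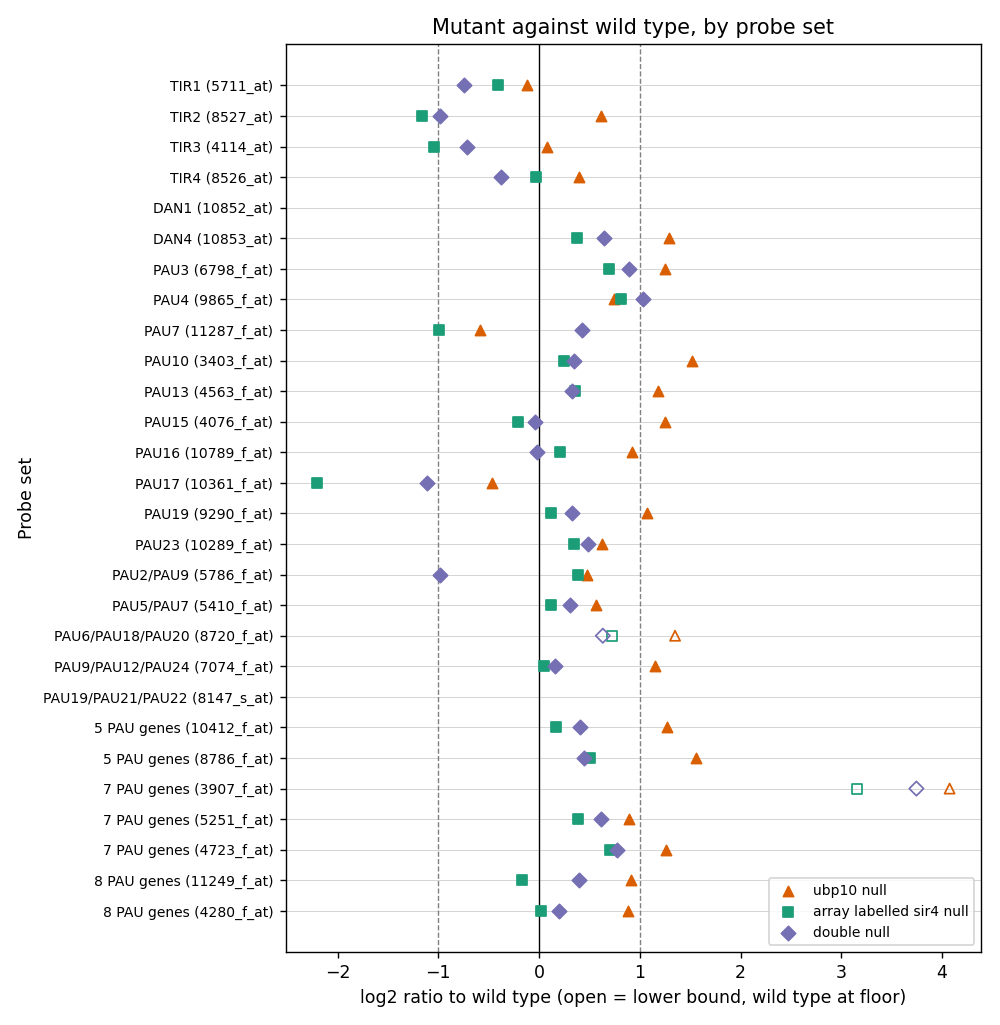
log2 ratio of each mutant to wild type (x axis) for each probe set (y axis), as deposited for the ubp10 null and relative to the median ratio for the other mutants, with dashed lines at a 2-fold difference. Most PAU probe sets have the ubp10 null (triangles) farthest right, around 1, whereas the 4 TIR probe sets and PAU17 lie left of 0 for both other mutants. The 2 probe sets under the floor on every array have no marker.

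Among the TIR genes none was called in the ubp10 null. TIR1 read 307.6, 283.2, 321.3 and 255.0 units, and its highest and lowest arrays differed by 1.26-fold as deposited. TIR3 read 130.0, 137.2, 87.0 and 109.9 units and TIR4 16.6, 21.8, 22.4 and 17.8. Ratios of the ubp10 null to the wild type were 0.921 for TIR1, 1.06 for TIR3 and 1.31 for TIR4, and 0 of these 3 were called there. TIR2 read 124.6, 191.4, 76.7 and 87.6 units, highest in the ubp10 null at 1.54-fold and lower in both strains labelled as lacking SIR4. DAN4, which read 9.3, 22.7, 16.7 and 20.2 units, was the only DAN or TIR probe set called higher in the ubp10 null, at 2.44-fold, with a wild-type value near the floor. DAN1, its neighbour, stayed under the floor throughout.

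The sir4-labelled array gave fewer calls and a split family. Against wild type 5 members were called higher and 1 lower as deposited, against 16.8% and 6.75% of all probe sets. Relative to the median ratio 1 member was higher and 3 were lower, against 6.35% and 12.0% of all probe sets. The higher count is near the share of all probe sets under either scaling. The 5 called as deposited were PAU3, PAU4, 4723_f_at, 3907_f_at and 8720_f_at, and only 3907_f_at kept its call relative to the median, at least 8.91-fold. The median log2 ratio of the members was 0.61 as deposited, against 0.09 over all probe sets, many of which lay at the floor. Among probe sets bright enough for a call the medians were closer, 0.67 for the members and 0.49 for all.

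The 3 members called lower on that array under either scaling were PAU17, TIR2 and TIR3. PAU17 was at 85.6 units against 285.3 in the wild type, 4.60-fold lower relative to the median, and was called under both scalings. TIR2 and TIR3, at 76.7 and 87.0 units against 124.6 and 130.0 in the wild type, were 2.24- and 2.06-fold lower relative to the median and were called there alone. As deposited their ratios were 0.616 and 0.669. PAU7 lay just short of a call, 1.99-fold lower relative to the median and at a ratio of 0.693 as deposited. The other TIR genes had ratios above 1 as deposited, 1.04 for TIR1 and 1.35 for TIR4, and below 1 relative to the median, 0.756 and 0.977.

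The double null, labelled as lacking both genes, gave fewer higher calls over wild type than the ubp10 null. Over wild type 7 members were called higher in the double null and 0 lower as deposited, against 14.6% and 5.69% of all probe sets. Relative to the median ratio 2 were higher and 1 was lower, against 4.53% and 9.55%. The 7 were PAU3, PAU4, DAN4, 3907_f_at, 8720_f_at, 4723_f_at and 5251_f_at. PAU4 was the clearest of these on a probe set of its own, 2.05-fold higher relative to the median and 2.85-fold as deposited. PAU17 was called lower, 2.16-fold relative to the median, and the PAU2/PAU9 probe set, TIR2, TIR1 and TIR3 were 1.98-, 1.98-, 1.68- and 1.65-fold lower without a call. The median log2 ratio was 0.80 as deposited, against 0.19 over all probe sets. Among probe sets bright enough for a call it was 0.82 for the members and 0.51 for all.

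The wild-type array was the common base of these 3 comparisons. Among the 26 members above the floor on at least 1 array, the wild type was the lowest array in 20 (76.9%), against 25.6% of the 7542 such probe sets in all. Relative to the median ratios it was lowest in 16 (61.5%), against 16.4%. A rise in all mutants and a low reading on the 1 wild-type array cannot be told apart in this design.

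Among the mutants the ubp10 null stood highest. It was the brightest array in 15 of the 26 members (57.7%) as deposited, against 26.4% of all probe sets, and in 22 (84.6%) relative to the median ratios, against 39.5%. All 11 shared PAU probe sets above the floor were among the latter.

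The labelled loss of SIR4 in a strain without UBP10 gave few calls among the members. Set against the ubp10 null, 1 member of the double null was called higher and 1 lower as deposited, against 20.9% and 10.7% of all probe sets. Relative to the median 1 was higher and 5 were lower, against 12.6% and 15.3%. The 5 lower were TIR2 (2.81-fold), the PAU2/PAU9 probe set (2.54-fold), PAU15 (2.26-fold), PAU10 (2.09-fold) and 8786_f_at (2.0-fold), and TIR2 was the 1 called lower as deposited. PAU7 was the member called higher, from 43.4 to 121.4 units, 2.17-fold relative to the median. Of the 22 PAU probe sets, 0 were called lower as deposited and 4 relative to the median, and PAU7 was the 1 called higher under either scaling. The share of members lower was near the share of all probe sets relative to the median, while the members' median log2 ratio was -0.19 as deposited against 0.00 over all probe sets. With the comparison limited to probe sets whose mean log2 over the 4 arrays reached the brightness minimum, the medians were -0.21 for 25 members and 0.41 for 5979 probe sets.

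**Figure D4:**
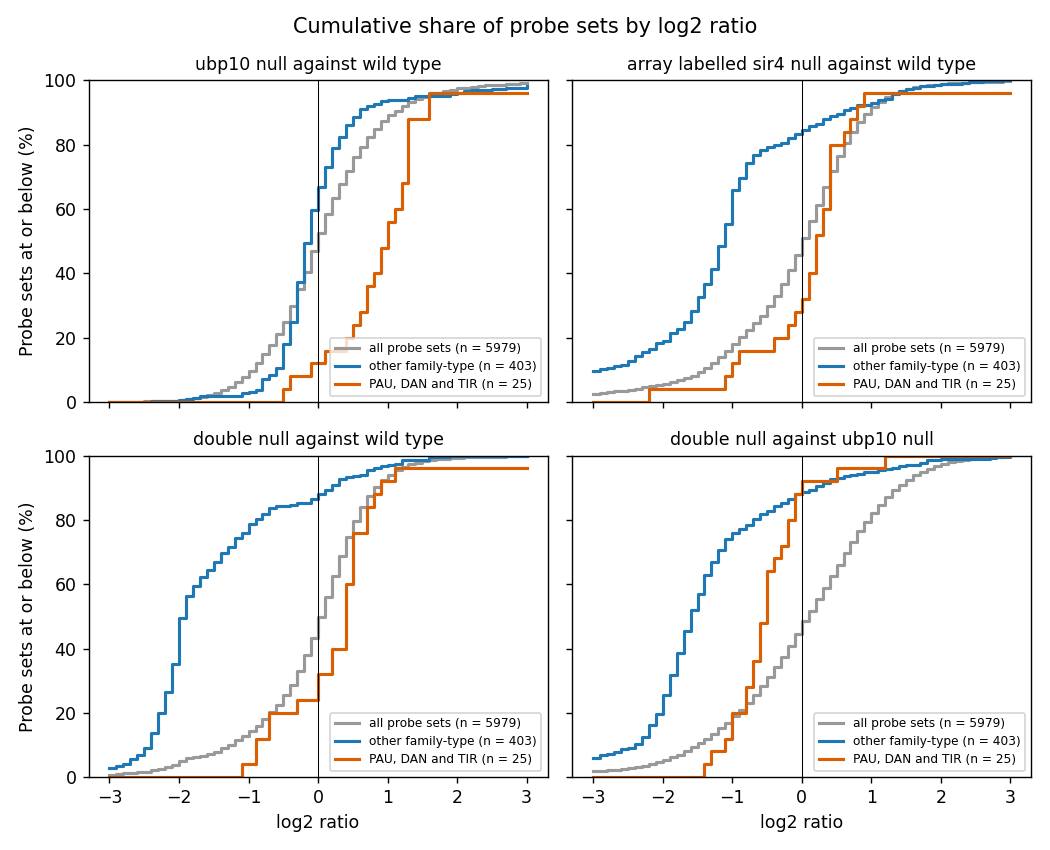
Cumulative percent of probe sets (y axis) by log2 ratio (x axis) in 4 comparisons, for 25 members, 403 other probe sets of the family type and all 5979 probe sets with a mean log2 over the arrays at or above the brightness minimum, on the scale used for folds in each comparison. For ubp10 null over wild type 12.0% of the members lay at or below 0, against 52.7% of all probe sets, and for double null over ubp10 null 92.0% did, against 48.4%.

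Loss of UBP10 in a strain labelled as lacking SIR4, double null over the sir4-labelled array, gave few calls. PAU7 (2.69-fold) and PAU17 (2.15-fold) were called higher and the PAU2/PAU9 probe set was called lower, from 45.8 to 17.8 units, against 7.53% and 4.69% of all probe sets. The median log2 ratio of the members was 0.18, against 0.00. PAU10, PAU13, PAU15 and PAU19, the single-gene probe sets called in the ubp10 null with SIR4 present along with PAU3, differed here by ratios of 0.988 to 1.17.

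For most members the readings of the double null lay below the sum of the single effects. The departure from additive effects was taken as the log2 value of the double null plus that of the wild type, minus those of the 2 single nulls. Its median was -0.93 over the 26 members above the floor somewhere, and it was below 0 in 23 of them (88.5%), against a median of -0.06 and 53.3% of all such probe sets. It was -1.42 for PAU10, -1.20 for PAU13 and -1.04 for PAU3, but 2.01 for PAU7 and 1.57 for PAU17. Each value uses 4 single arrays, and the sir4-labelled array with its 5′ loss is among them. A low wild-type reading or a high ubp10 null reading lowers the departure by construction. It therefore restates the order of arrays given above and is not separate evidence.

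Other gene groups of repeated or chromosome-end copies are given for comparison, and their difference from the members was not tested. Of 565 other probe sets of the family type, 43 were called higher (7.61%, against 9.84% of all probe sets) in the ubp10 null. There 17 were called lower (3.01%, against 6.44%), and the median log2 ratio was -0.03. In the double null 279 were called lower as deposited (49.4%, against 5.69%). Of 23 probe sets for the COS genes, another chromosome-end family, 4 were called higher (17.4%, against 9.84%) and 0 lower in the ubp10 null. Their median was 0.37 there, and 16 had a ratio above 1 against 3 below. The double null had 9 COS probe sets higher as deposited (39.1%, against 7 of the 28 members and 14.6% of all probe sets) and 0 relative to the median ratio.

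Regulators of the anaerobic genes gave 3 calls in the ubp10 null. Of 11 probe sets for 9 regulators, 2 were called higher (18.2%, against 9.84% of all probe sets) and 1 lower (9.09%, against 6.44%), with a median log2 ratio of 0.25. ROX1, the heme-dependent repressor of hypoxic genes, read 66.7, 228.7, 46.5 and 86.2 units, 3.43-fold higher in the ubp10 null. CYC8, a subunit of the Cyc8-Tup1 co-repressor, read 73.1, 198.5, 43.1 and 92.0 units and was 2.72-fold higher there. TUP1, the partner of CYC8 in that co-repressor, had the opposite order, with 129.8, 72.7, 210.2 and 225.1 units, lowest in the ubp10 null at 1.79-fold below wild type without a call. ECM22, a sterol-responsive activator related to UPC2, was called lower in the ubp10 null, from 45.8 to 17.7 units, and UPC2 itself read 6.1, 10.6, 6.9 and 9.2, too dim for a call. Of the same 11, 0 were called higher and 2 lower in the double null (18.2%, against 5.69% of all probe sets). Both were HAP1 probe sets of the family type. Of the 565 family-type probe sets outside the members, 279 were called lower there as deposited. The other HAP1 probe set, a plain one, went from 31.4 to 47.4 units and was not called.

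Oxygen-repressed genes outside the family were mostly not called. Of 17 probe sets for 12 genes, 2 were called higher in the ubp10 null (11.8%, against 9.84% of all probe sets) and 1 lower (5.88%, against 6.44%). The median there was 0.17. In the double null 2 were higher (11.8%, against 14.6%) and 1 lower (5.88%, against 5.69%) as deposited. These shares are near those of all probe sets. CYC7, the hypoxic form of cytochrome c, read 13.5, 91.4, 21.2 and 58.1 units, 6.77-fold higher in the ubp10 null. FHN1 was 2.19-fold higher there, and ARE1, a sterol acyltransferase, was lower, from 171.3 to 77.3 units. ANB1, the hypoxic translation factor eIF5A, read 163.3, 235.9, 73.3 and 67.4 units and was called lower in the double null. HEM13, HMG2, OLE1 and AAC3, which are also induced when oxygen is low, were not called in any of the 3 comparisons with the wild type as deposited.

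Wall mannoproteins of aerobic cells gave calls in both directions. Of 12 such genes, 4 were called higher (33.3%, against 9.84% of all probe sets) and 0 lower in the ubp10 null, with a median of 0.58. The 4 were SPI1 (31.8-fold), YGP1 (11.0-fold), PIR3 (3.10-fold) and CWP1 (2.09-fold). On the sir4-labelled array 1 of the 12 was higher and 3 were lower as deposited, against 16.8% and 6.75% of all probe sets. Relative to the median 1 was higher and 9 were lower, against 6.35% and 12.0% of all probe sets. The 1 higher was YGP1, with 43.3, 475.4, 420.6 and 143.0 units. TIP1, the close relative that names the protein family, read 646.3, 1172.5, 413.4 and 296.3 units. Counts in the double null were 2 higher and 2 lower as deposited (16.7% each, against 14.6% and 5.69%). Relative to the median they were 2 and 5, against 4.53% and 9.55% of all probe sets. CCW12 read 2710.9 units there, against 6085.1 in the wild type. Bright probe sets read lower on both of these arrays as a whole: the 98th percentile of intensity was 1484, 1577, 1033 and 991 units, and its part in these lower readings was not tested.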

How the data were processed

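Intensity values per probe set were made by the authors with MAS 4.0, per the labels, and were used as deposited. Their scaling is not stated in the labels. Of 9335 probe sets per array, 60 were controls and were left out. Gene symbols came from the platform annotation: of 9275 probe sets, 6504 had 1 symbol, 328 several and 2443 were not listed. Symbols, synonyms and gene order came from the RefSeq table of assembly R64, whose coordinates are not printed because no label names the array's build. All 28 members matched that table through their gene identifiers.

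The noise SD came from values below 0, mirrored about 0 (the median size times the usual factor for an SD). Arrays are too few for tests; their number limits the precision. The 5 comparisons, the calling rule and the named genes (every DAN and TIR probe set, each PAU probe set called in any comparison, the brightest 3 and the dimmest) follow the report's account, and the members and lists were chosen with earlier results of these data known. Up to 4 called genes per list were named, plus genes shown for contrast. Calling was checked on simulated arrays with 200 changed genes. These lay well above the floor and changed by more than the calling ratio, so the check did not cover dim members. Alternatives were median centring, quantile normalization, cyclic loess, the floor halved or doubled, a ratio of 3, single-gene probe sets and plain probe sets. Chosen after seeing the data were members above the floor on all 4 arrays, and quantile normalization without the sir4-labelled array. Python 3.11.15 with numpy 2.4.6 and pandas 2.3.3, and R 4.3.3 with limma 3.58.1 for normalization, were used.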

Additional observations from a re-analysis of the deposited data

Results flagged for a closer look

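In 3 probe sets the loss of 1 gene went opposite ways with and without the other, as deposited, by at least 1.2-fold each way and with at least 1 of the 2 differences called. None of these differences was tested, since each rests on 4 single arrays. The sir4-labelled array, with the 5′ loss described above, is among them.

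For PAU7, loss of UBP10 gave a ratio of 0.667 with SIR4 present and 2.69 on the arrays labelled as lacking SIR4, which differ by 4.04-fold. By construction the ratios for the labelled loss of SIR4 differed by the same 4.04-fold, at 0.693 with UBP10 present and 2.80 without it. For PAU17, loss of UBP10 gave 0.722 with SIR4 present and 2.15 on the arrays labelled as lacking SIR4, a 2.98-fold difference. For the probe set of PAU2 and PAU9 the ratios were 1.39 and 0.389, a 3.58-fold difference in the other direction. The other probe set listed for PAU7, shared with PAU5, did not show the reversal: its ratios for loss of UBP10 were 1.48 and 1.14.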

How the results depend on the processing

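No paired analysis was possible because each group holds 1 array, and for the same reason no replicate could be left out. For ubp10 null over wild type the 12 members called higher became 12 with the median ratio centred, 11 under quantile normalization with or without the sir4-labelled array, 11 under cyclic loess, 12 and 9 with the floor halved and doubled, and 10 among the 24 members above the floor on all arrays; there were 1 with a ratio of at least 3, 6 among 16 single-gene probe sets and 1 among 6 plain ones, which hold only DAN and TIR genes. For the sir4-labelled array over wild type the 5 higher and 1 lower became 1 and 3 (median centred), 2 and 4 (quantile) and 1 and 4 (cyclic loess). Higher calls there were 3 with the floor doubled, 1 with a ratio of 3, 2 on single-gene probe sets, 0 on plain ones and 3 among members above the floor on all arrays, with 0 lower on plain ones. For double null over wild type the 7 higher and 0 lower became 2 and 1 (median centred, and quantile with or without the sir4-labelled array) and 1 and 3 (cyclic loess), and higher calls were 1 with a ratio of 3, 3 on single-gene and 1 on plain probe sets. For double null over ubp10 null the 1 lower became 5 (median centred), 6 (quantile, with or without that array), 9 (cyclic loess) and 0 with a ratio of 3, and the 1 higher became 0 under cyclic loess, with a ratio of 3 and on plain probe sets. For double null over the sir4-labelled array the 2 higher and 1 lower became 0 and 0 with a ratio of 3 and on plain probe sets, and lower calls were 0 on single-gene probe sets. The median log2 ratio changed sign for the sir4-labelled array under cyclic loess (-0.05, against 0.61) and for the double null against wild type on plain probe sets (-0.12, against 0.80). Without a change of sign, under median centring, quantile normalization and cyclic loess in turn, it was 0.33, 0.24 and 0.09 for double null over wild type (0.80 as deposited) and -0.55, -0.57 and -0.69 for double null over ubp10 null (-0.19). It was 0.14 under both centring and quantile normalization for the sir4-labelled array (0.61). On plain probe sets it was 0.24 for ubp10 null over wild type (0.91) and 0.03 for the sir4-labelled array. For double null over the sir4-labelled array it was 0.05 under quantile normalization and 0.10 on plain probe sets (0.18). The counts under a stricter ratio or fewer probe sets fall by construction; the cause of the others was not tested. Arrays carry no depth, and probe sets within a few units of the floor, such as DAN4 and PAU15 in the wild type, have the least certain ratios.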

Other observations

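The neighbours of the family genes gave no common pattern. HSP104, the disaggregase gene beside PAU17, read 72.0, 353.2, 121.7 and 144.4 units (wild type, ubp10 null, sir4-labelled array, double null) and was called higher in the ubp10 null at 4.91-fold, where PAU17 was lower at a ratio of 0.722. SSA2, an Hsp70 gene on the other side, read 3480.9, 5480.6, 2283 and 1949.5 units. The order of the arrays for PAU17 was thus not that of either neighbour.

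Near chromosome ends the genes beside PAU13 and PAU15 also differed from them. ARN2, a siderophore transporter beside PAU13, read 20.1, 19.2, 17.8 and 59.8 units in the same order and was called higher in the double null alone, at 2.98-fold as deposited, whereas PAU13 was highest in the ubp10 null. YPS6, a yapsin-family protease gene beside PAU15, read 15.9, 29.4, 6.4 and 29.9 units. The probe sets for AUS1, next to TIR2, did not agree among themselves: 8528_at read 16.9, 11.2, 30.9 and 38.7 units, while 2631_s_at read 14.6, 8.3, 4.6 and 17.5.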
